A study of Arabidopsis thaliana with 4 samples.

Results

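The calmodulin core of Arabidopsis thaliana consists here of 10 genes: the calmodulin genes CAM1 to CAM7 and the calmodulin-like genes CML8, CML9 and CML11, whose proteins are among those closest to calmodulin. They were taken by gene identifier, and all 10 were found among the 32833 genes of the deposited count table. RNA came from whole seedlings of ecotype Col0 at 7 days of age, grown in 16 h of light and 8 h of darkness, and stranded mRNA libraries were sequenced. The 2 wild-type libraries (wt) were compared with 2 libraries labelled cml39 -/-, from plants homozygous for a mutation in CML39, another calmodulin-like calcium sensor, whose allele the labels do not name. Whether the 2 samples of a genotype came from separate cultures is not stated, so p-values measure the spread between these samples only, which may be technical.

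Calmodulin is a small protein that binds calcium through loops called EF hands. On binding calcium it changes shape and attaches to target proteins, which include transcription factors, calcium pumps, metabolic enzymes and scaffolds on the cytoskeleton, and so passes a calcium signal on. Plants carry several calmodulin genes that encode the same or nearly the same protein, along with a larger family of calmodulin-like proteins that have diverged further.

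The proteins translated from the reference coding sequences showed how close the genes are. CAM1 to CAM7 each encode 149 residues, but only 4 distinct proteins. CAM2, CAM3 and CAM5 encode 1 identical protein. CAM1 and CAM4 encode another, which differs from CAM2 at 5 residues (D8E, R75K, D123E, K127R and V145I, with CAM2's residue first and positions counted from the initial methionine). CAM6 differs from CAM2 at 2 residues (T118S and K127R) and CAM7 at 1 (K127R). CML11 (173 residues) was 73.8 to 75.2% identical to the CAM proteins over the aligned residues, CML8 (151 residues) 71.8 to 73.2%, and CML9 (151 residues) 49.7 to 51.7%. CML8 and CML11 were 85.4% identical to each other. A search for the 12-residue calcium-binding loop found 4 matches in every CAM protein, in CML8 and in CML11, and 2 in CML9, so 2 of the loops of CML9 depart from the pattern searched.

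**Figure D1:**
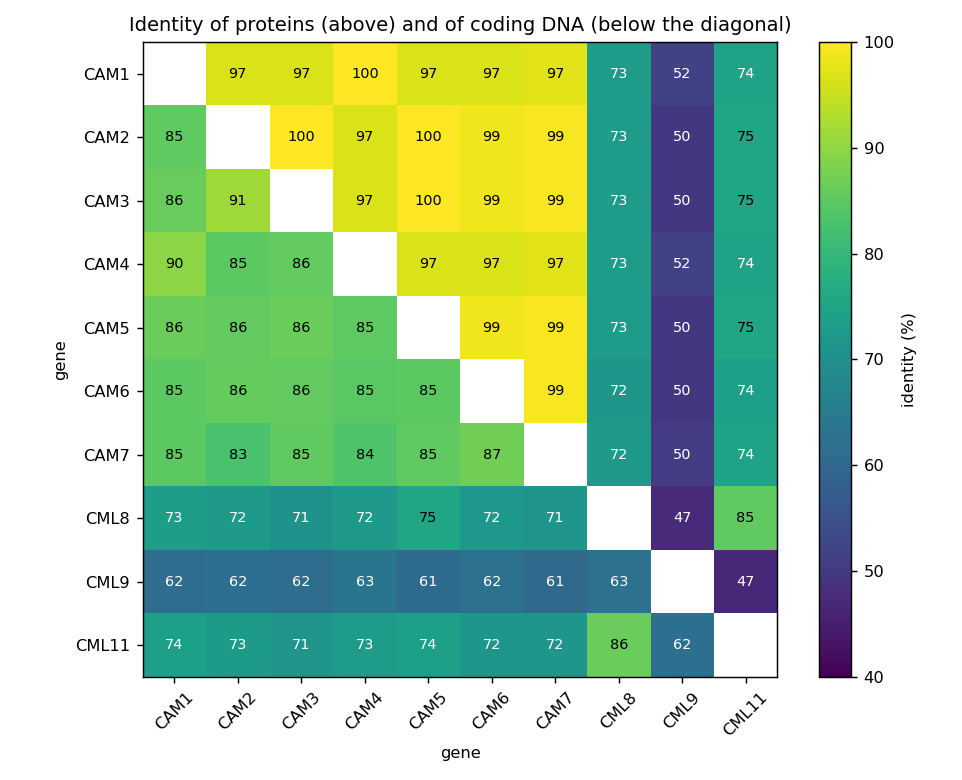
Identity in percent between the 10 members, for each pair of genes named on the axes, with proteins above the diagonal and coding DNA below it. Proteins of CAM1 to CAM7 were 96.6 to 100% identical while their coding DNA was 82.7 to 91.3% identical.

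The DNA of the genes has diverged more than the proteins, which is what lets sequencing tell them apart. The 36 bases that encode the last EF-hand loop are shown for this reason, on the coding strand of TAIR10.1 (RefSeq). Capitals mark the 8 positions at which the 7 CAM genes are not all the same. All 7 encode the same 12 residues, 130 to 141.
CAM1: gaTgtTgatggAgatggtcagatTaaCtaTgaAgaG
CAM2: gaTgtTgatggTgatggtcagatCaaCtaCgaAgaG
CAM3: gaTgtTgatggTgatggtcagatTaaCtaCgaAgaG
CAM4: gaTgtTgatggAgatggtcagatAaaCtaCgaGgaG
CAM5: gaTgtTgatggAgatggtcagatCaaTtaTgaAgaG
CAM6: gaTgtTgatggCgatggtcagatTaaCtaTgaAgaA
CAM7: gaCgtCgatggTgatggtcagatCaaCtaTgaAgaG
In the calmodulin-like genes capitals mark differences from CAM2. CML8 and CML11 had the same 36 bases, which differ from CAM2 at 9, and CML9 differed at 15.
CML8: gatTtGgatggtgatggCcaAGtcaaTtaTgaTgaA
CML9: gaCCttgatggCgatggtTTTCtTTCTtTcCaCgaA
CML11: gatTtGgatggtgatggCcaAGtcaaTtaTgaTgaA
Over whole transcripts, no stretch of 50 bases of CAM1 to CAM7, CML8 or CML9 occurred a second time in the genome, and 20 of the 835 stretches of CML11 did, none of them in another member. The length of the sequenced reads is not given in the sources used here.

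The libraries held 24101882 and 19331639 counts in wt and 21981123 and 19821451 in cml39. Of 19834 genes tested, 8107 passed an adjusted p of 0.05 (edgeR's quasi-likelihood test), 40.9% of all, with 19.3% higher and 21.6% lower in cml39. With upper quartile scaling, under which the typical gene shifted by -0.148 on the log2 scale (median over genes), the counts were 2704 higher and 5403 lower in place of 3822 and 4285. CML39 itself had 0 counts in both wt libraries and 45 and 21 counts in the cml39 libraries. The libraries labelled cml39 -/-, whose allele is not named, thus did not lack its transcript. Every direction below therefore sets libraries as they were labelled, cml39 against wt, and "cml39" and "wt" stand for those labels. Whether the allele leaves a transcript or the labels were exchanged was not tested. With exchanged labels every direction given here, the limit for CML8 and the ratios of counts included, would reverse. Of 14 root marker genes 11 were lower, 0 higher and 3 (SCR, PLT1 and PLT2) not called. The 14 summed to 4138 to 4677 CPM (read counts relative to the scaled library size) in wt and 1083 to 1346 in cml39. Most of that sum was PYK10, at 4293 and 3748.5 CPM in wt and 973 and 1210 in cml39. WOX5 was at 0 in both cml39 libraries, and SCR lay above wt in both. Of 8 markers of dividing cells 7 were lower and 0 higher, with 111 to 139.9 CPM in wt and 25.2 to 27.5 in cml39. Of 7 markers of green tissue 4 were higher and 0 lower, with 45156 to 47457 CPM in wt and 64855 to 69955 in cml39. The 5 flower markers summed to 11.7 to 12.7 CPM in wt and 165.2 to 181 in cml39. That rise lay in PI, at 5.74 and 8.42 CPM in wt and 175 and 159.6 CPM in cml39. Only PI and SEP3 were tested. SEP3 stood at 5.70 and 4.16 CPM in wt and 5.68 and 5.53 CPM in cml39 and was not called (adjusted p = 0.584). AP1 was at 0 counts in every library and AP3 at 0 in both cml39 libraries. In bulk seedlings fewer cells of a type and less RNA per cell cannot be told apart, and the part of these markers in the calmodulin results was not tested.

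Among the 10 members, 3 were higher (CAM2, CML9 and CML11) and 2 lower (CAM5 and CML8) in the libraries labelled cml39, and 5 did not pass. That is 5 of 10, beside 40.9% of all tested genes. The median log2 change was 0.031 over the 10 members and -0.15 over CAM1 to CAM7, beside -0.0052 over all tested genes. In all 10 the groups did not overlap, with cml39 above wt in 5 and below in 5, where 74.0% of all tested genes did not overlap either. All 10 passed the filter on low counts, CML8 only through its counts in wt, so that its call could only be lower. Without wt 1, 0 of the 9 members that could then be tested passed by edgeR's quasi-likelihood test or by DESeq2, while 3 (CAM2, CAM5 and CML9) had an unadjusted edgeR p under 0.05, and the calls over all genes came to 3899. There the lone wt library is assumed to vary as the cml39 libraries do.

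**Figure D2:**
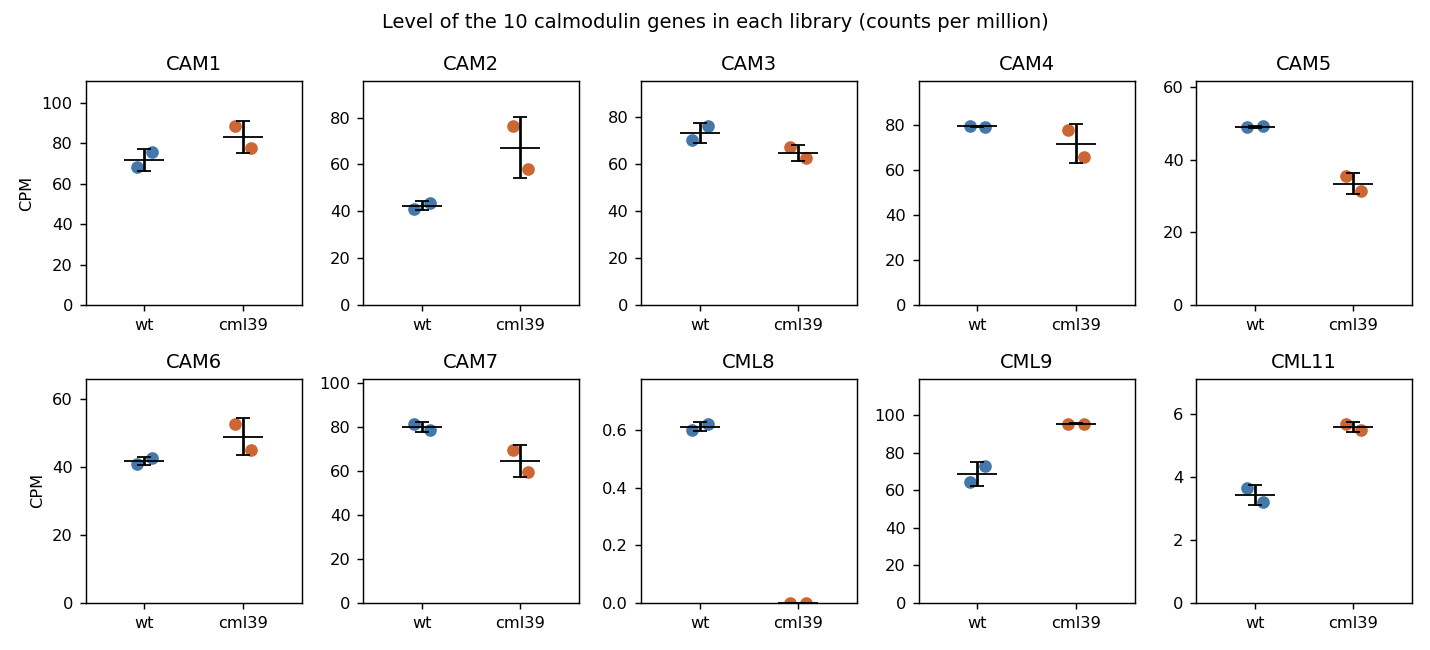
CPM of each of the 10 members in each library, with wt on the left and cml39 on the right of each panel, points for libraries, and the mean and SD in black (n = 2). The scale of the vertical axis differs between panels and starts at 0, and the 2 groups do not overlap in any panel.

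Of the 3 genes for one identical protein, CAM2 rose, CAM5 fell and CAM3 did not pass. CAM2 (AT2G41110, chromosome 2, 17140183 to 17141431, plus strand) stood at 41.1 and 43.7 CPM in wt and at 76.5 and 58.0 CPM in cml39. Both cml39 libraries were above both wt libraries, the first of them by more. The log2 change of CAM2 was 0.67 ± 0.15 (SE, n = 2, adjusted p = 0.00909), or 1.59-fold. Without wt 1 it was 0.62 and did not pass (adjusted p = 0.0706), and over the other alternatives the adjusted p reached at most 0.0369.

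The 3′ end of CAM2 overlaps by 157 bases that of AT2G41120, a gene on the opposite strand. AT2G41120 had 253 and 223 counts in wt and 437 and 487 in cml39, a log2 change of 1.27 ± 0.16 (SE, adjusted p = 0.000811). A long noncoding RNA, AT2G09225, is also annotated on the strand opposite CAM2. The strand setting of the counting is not given, so reads from the overlap may have gone to either gene or to neither. CAM2 is uncertain by an amount that was not measured.

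CAM5 (AT2G27030, chromosome 2, 11531967 to 11534358, plus strand) stood at 48.8 and 49.3 CPM in wt and at 35.4 and 31.4 CPM in cml39. The wt libraries lay close together and both cml39 libraries were below them. The log2 change of CAM5 was -0.55 ± 0.11 (SE, adjusted p = 0.00695), a level 1.47-fold lower. Without wt 1 the change was -0.56 with an adjusted p of 0.0543. CAM3 (AT3G56800, chromosome 3, 21034534 to 21036166, minus strand), which has been linked to signalling in heat stress, stood at 70.4 and 76.4 CPM in wt and at 67.2 and 62.5 CPM in cml39. The log2 difference of CAM3 was -0.18, with a 95% interval from -0.42 to 0.070 (adjusted p = 0.221). With upper quartile scaling CAM3 passed as lower, at -0.32 (adjusted p = 0.0394).

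Because CAM2 and CAM5 were read in the same libraries, their ratio of counts needs no scaling between libraries. The ratio of CAM2 to CAM5 was 0.842 and 0.887 in wt and 2.16 and 1.85 in cml39. The more abundant of this pair in reads was CAM5 in both wt libraries and CAM2 in both cml39 libraries, a change of the mean ratio by 2.32-fold. The ratio of CAM2 to CAM3, the pair with the closest coding DNA among the CAM genes (91.3%), was 0.584 and 0.572 in wt and 1.138 and 0.927 in cml39. The exact two-sided permutation test over libraries gave p = 0.333 for each of the 2 ratios, the smallest value that 2 against 2 libraries allow, and the pairs were chosen after the values were seen.

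CAM1 and CAM4, which encode the other shared protein, did not pass. CAM1 (AT5G37780, chromosome 5, 15004466 to 15006267, minus strand) stood at 68.0 and 75.7 CPM in wt and at 88.6 and 77.5 CPM in cml39. Its log2 difference was 0.21, with a 95% interval from -0.060 to 0.48 (adjusted p = 0.187). CAM4 (AT1G66410, chromosome 1, 24774113 to 24775984, minus strand) stood at 79.8 and 79.5 CPM in wt and at 78.0 and 65.8 CPM in cml39. Its log2 difference was -0.15, with an interval from -0.42 to 0.12 (adjusted p = 0.347). The first cml39 library lay within 2 CPM of wt for CAM4, and the second was lower. The ratio of CAM1 to CAM4 counts was 0.852 and 0.952 in wt and 1.135 and 1.18 in cml39 (exact permutation p = 0.333, the smallest possible).

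The last CAM genes each encode a protein of their own. CAM6 (AT5G21274, chromosome 5, 7214474 to 7216052, minus strand) stood at 41.0 and 42.6 CPM in wt and at 52.8 and 45.1 CPM in cml39. Its log2 difference was 0.23, with an interval from -0.048 to 0.51 (adjusted p = 0.163), and it passed as higher without cml39 2 (0.34, adjusted p = 0.0409). CAM7 (AT3G43810, chromosome 3, 15663000 to 15666469, minus strand), which is also known as a factor that binds light-responsive promoters, stood at 81.7 and 78.7 CPM in wt and at 69.7 and 59.4 CPM in cml39. Its log2 difference was -0.31, with an interval from -0.58 to -0.045 (adjusted p = 0.0629). CAM7 passed as lower with upper quartile scaling (-0.46, adjusted p = 0.0149) and without cml39 1 (-0.43, adjusted p = 0.0143).

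**Figure D3:**
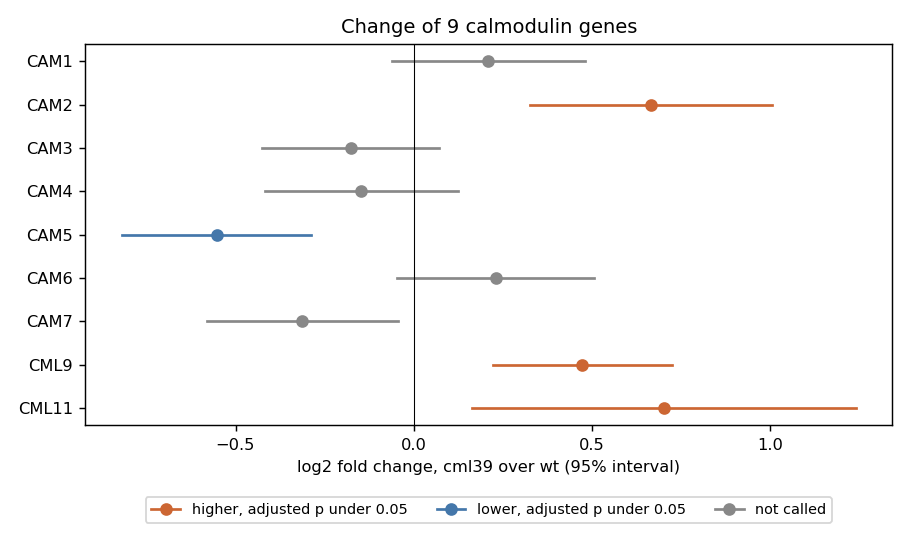
Log2 fold change of 9 members, cml39 over wt, with the 95% interval of the fit, coloured by the call at an adjusted p of 0.05. CAM2, CML9 and CML11 lie above 0 and CAM5 below it, and CML8, which had 0 counts in cml39, is not drawn.

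Among the calmodulin-like members CML9 and CML11 rose and CML8 fell. CML9 (AT3G51920, chromosome 3, 19267951 to 19269658, minus strand), a stress-induced sensor known from responses to abscisic acid, salt and bacteria, stood at 64.3 and 73.2 CPM in wt and at 95.2 and 95.6 CPM in cml39. The cml39 libraries were nearly equal, and both were above wt. The log2 change was 0.47 ± 0.11 (SE, adjusted p = 0.0108), or 1.39-fold, and without wt 1 it was 0.38 and did not pass (adjusted p = 0.120).

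CML11 (AT3G22930, chromosome 3, 8124020 to 8125931, minus strand) was read far less, with 97 and 67 counts in wt and 113 and 100 in cml39, or 3.64 and 3.20 CPM against 5.68 and 5.47 CPM. Its log2 change was 0.70 ± 0.23 (SE, adjusted p = 0.0440), or 1.63-fold. It was the call nearest the threshold, and it was lost with upper quartile scaling (adjusted p = 0.0956), with DESeq2 (adjusted p = 0.148), without wt 1 (adjusted p = 0.154), without wt 2 (adjusted p = 0.228) and without cml39 1 (adjusted p = 0.0786).

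CML8 (AT4G14640, chromosome 4, 8397693 to 8400226, plus strand), known from defence against bacteria, had 16 and 13 counts in wt and 0 in both cml39 libraries. With 3 counts over the cml39 group as the floor, 0.0786 CPM, and the 0.61 CPM of wt taken as measured, it was at least 7.75-fold lower (adjusted p = 0.00865). CML8 passed the filter on low counts only through wt, so a call could only be lower. Its adjusted p is therefore no separate evidence of a fall. The limit was 3.71-fold without cml39 1 and 4.04-fold without cml39 2, where the floor is 3 counts in 1 library. Without wt 2 the adjusted p was 0.0564, and without wt 1 it had too few counts to be tested. The floor covers counting error in cml39 only, and a limit that also held the counting error of wt would be lower. Reads without molecular identifiers are not independent molecules. At this depth a level of CML8 in cml39 below the floor was not detectable.

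By the root mean square distance of centred log2 values (CPM with 0.5 added) over the 4 libraries, the tested genes whose pattern lay nearest that of CML8, the member with the largest change, were AT1G78260, AT1G74840 and AT4G30060, at distances of 0.0080, 0.0091 and 0.020. AT1G78260 stood at 32.6 and 33.0 CPM in wt and at 14.6 and 14.4 CPM in cml39. The added 0.5 CPM compresses the change of CML8, which is low, so these are neighbours on that scale only.

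To compare levels between genes, CPM was divided by the length of all annotated exons in kilobases. In wt the order was CML9 (66.9 ± 6.16, SD, n = 2), CAM3 (64.2 ± 3.76), CAM1 (63.1 ± 4.74), CAM6 (51.1 ± 1.40), CAM5 (46.4 ± 0.29), CAM2 (46.0 ± 2.0), CAM4 (42.5 ± 0.12), CAM7 (31.2 ± 0.83), CML11 (1.87 ± 0.17) and CML8 (0.636 ± 0.016) CPM per kilobase. CML9, CAM3 and CAM1 overlapped between libraries, as did CAM5 and CAM2, and every other neighbour in that order was apart in both wt libraries. CML9 was thus read at the level of the CAM genes, while CML8 and CML11 were read far below them. In cml39 CML9 was again first, at 92.9 ± 0.28 CPM per kilobase, and CAM2 was second, at 73.0 ± 14.2, with CAM1 at 73.0 ± 6.90 beside it.

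The order of the CAM genes rests on the length used, since CAM4 and CAM7 have longer annotated isoforms (1872 and 2572 exonic bases in all, against 927 and 1050 in the transcript with the coding sequence compared here). Per kilobase of that 1 transcript, CAM4 was first in wt, at 85.9 CPM per kilobase, followed by CAM1 (79.6), CAM7 (76.4) and CML9 (66.9), and CAM2 was the lowest of the CAM genes, at 47.9. CML11 (3.87) and CML8 (0.789) were lowest by either length.

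The CAM genes together differed by less than the spread between libraries. The summed level of CAM1 to CAM7 was 431 and 446 CPM in wt and 468 and 399.8 CPM in cml39, and the 2 cml39 libraries lay on either side of wt. The log2 ratio of the group means was -0.014 (exact two-sided permutation p = 1). It was -0.162 with upper quartile scaling and -0.133 without cml39 1.

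Within that sum the share of CAM2 was larger and those of CAM5 and CAM3 were smaller in cml39, and the share of the protein that these genes encode moved little. Per kilobase of exon CAM2 held 13.3 and 13.5% of the summed CAM level in wt and 21.5 and 19.1% in cml39, and CAM5 held 13.7 and 13.2% in wt and 8.66 and 9.03% in cml39. The protein shared by CAM2, CAM3 and CAM5 accounted for 45.3 and 45.6% in wt and 45.4 and 44.8% in cml39. Its mean share differed by -0.365 percentage points (exact permutation p = 0.667), and the sign of that small difference turned with coding length (0.526) or the length of 1 transcript (0.213). The protein of CAM1 and CAM4 accounted for 30.4 and 30.9% in wt and 30.9 and 31.4% in cml39.

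The proteins encoded by 1 gene each were further apart between groups. CAM6 held 14.9 and 14.8% in wt and 16.7 and 16.8% in cml39, and CAM7 held 9.43 and 8.68% in wt and 7.01 and 7.02% in cml39. These shares rest on the length used. By coding length the mean share of CAM7 was 18.3% in wt and 14.9% in cml39 and that of CAM6 was 9.54% and 11.3%, so that CAM7 held more than CAM6, and by the length of 1 transcript it was 16.3% and 13.2% for CAM7 and 10.9% and 12.8% for CAM6. The difference between groups kept its direction by each length. By exonic length the exact permutation p was 0.333 for each of these proteins, the smallest that this test can give with 2 libraries a group, so neither difference could pass it. These are shares of transcript, and no protein was measured.

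**Figure D4:**
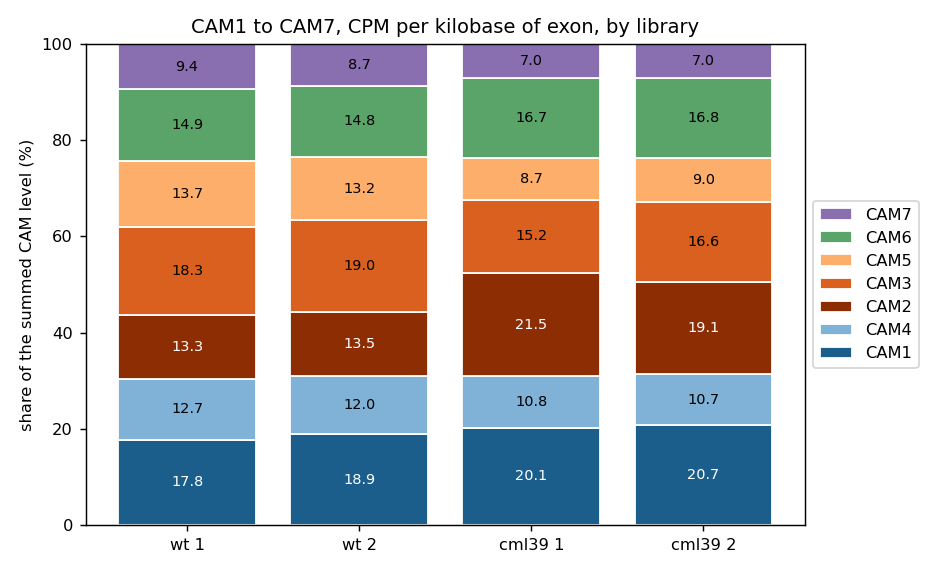
Share in percent of the summed level of CAM1 to CAM7 (CPM per kilobase of exon) held by each gene in each library, with genes of the same protein in shades of one colour. CAM1, CAM2 and CAM6 are larger and CAM3, CAM4, CAM5 and CAM7 are smaller in both cml39 libraries, while the block of CAM2, CAM3 and CAM5 is 44.8 to 45.6% in all 4.

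The authors' deposited table, made with DESeq2 per its columns, called 0 of the 10 members at an adjusted p of 0.05, and 4 (CAM2, CAM5, CML8 and CML11) had an unadjusted p under 0.05 in the authors' deposited table. It called 3312 of 20717 genes with an adjusted p, or 16%. CAM2 (0.65 ± 0.26, adjusted p = 0.0644), CML11 (0.66 ± 0.32, adjusted p = 0.157), CML9 (0.45 ± 0.33, adjusted p = 0.410), CAM5 (-0.52 ± 0.23, adjusted p = 0.100) and CML8 (-1.33 ± 0.59, adjusted p = 0.105) had log2 changes in the authors' deposited table with the SE given there. The mean counts in the authors' deposited table are over the libraries of their own fit. Whether those are the 4 libraries used here was not tested. In the authors' deposited table the mean of CML9 (1518) was below that of CAM1 (1561). Here CML9 was below CAM1 in wt (means of 68.7 and 71.8 CPM) and above it by more in cml39 (95.4 and 83.0 CPM). DESeq2 run here on the 4 libraries called 2 members higher and 2 lower, and 30.4% of all genes. Why the authors' deposited table differs in its means and calls was not tested. The change of CML8 in the authors' deposited table is smaller than the limit given for it above. DESeq2 run here gave CML8 a log2 change of -5.98, with 0 counts in both cml39 libraries. Whether the authors' log2 values were computed in another way was not tested.

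CAM1, CAM2 and CAM4 each lie beside a calmodulin-like gene in the same orientation, TCH2 and TCH3 being known as genes induced by touch. CAM2 lies 482 bases from CML12 (TCH3, AT2G41100), CAM4 2719 bases from CML23 (AT1G66400), and CAM1 4846 bases from CML24 (TCH2, AT5G37770), with no annotated protein-coding gene between them. All 3 neighbours rose, with log2 changes of 1.79 ± 0.32 (SE, adjusted p = 0.00373) for CML12, 1.46 ± 0.36 (adjusted p = 0.0155) for CML23 and 1.63 ± 0.11 (adjusted p = 9.03e-05) for CML24. Over all tested genes 19.3% were higher, and these 3 were picked after the values were seen. Of the CAM genes beside them only CAM2 passed. On the other side of CAM1 AT5G37790 fell (log2 change -1.48, adjusted p = 0.000976). Genes beside other members were called in both directions, such as CIPK26 beside CAM6 (0.59, adjusted p = 0.00491) and AT3G56810 beside CAM3 (-1.87, adjusted p = 0.000977).

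The 300 bases before each annotated start were searched on both strands for a CGCG box, taken as CGCG after A, C or G and before T, C or G, the kind of site that CAMTA factors are known to bind, and for the G-box CACGTG and a heat shock element. CAM2, CAM3 and CML9 held a CGCG box, 3 of 10 members, where 7.18% of 27443 promoters of the same length did. None of the 10 held a G-box (7.09% of promoters) or a heat shock element (0.485%). The stretches around the CGCG boxes are shown because the genes that hold them include 2 of the 3 members that rose. They are in TAIR10.1, with chr2:17140114-17140173 for CAM2 (plus strand), chr3:21036232-21036291 for CAM3 and chr3:19269696-19269755 for CML9 (both minus strand), and capitals mark the boxes.
CAM2: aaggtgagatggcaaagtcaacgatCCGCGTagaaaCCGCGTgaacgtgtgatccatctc
CAM3: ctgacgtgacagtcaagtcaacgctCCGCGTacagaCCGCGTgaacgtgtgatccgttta
CML9: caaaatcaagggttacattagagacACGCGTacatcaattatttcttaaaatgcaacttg
CAM2 and CAM3 each held the box at 2 places, beginning 44 and 33 bases before the start in CAM2 and 100 and 89 in CAM3, and 45 of the 60 bases were identical between them. CML9 matched CAM2 at 20 of the 60. CAM2 rose and CAM3 did not pass. A match is a run of letters, not a bound site.

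Genes for known targets of calmodulin were called in both directions. Beside the counts of this and the later lists, 40.9% of all tested genes were called, 19.3% higher and 21.6% lower. No list was tested against these shares. Of 6 tested CAMTA factors, transcription factors that bind calmodulin, 3 were higher and 0 lower (median log2 change 0.45, beside -0.0052 for all genes). The log2 changes were 0.52 ± 0.15 for CAMTA5 (SE, adjusted p = 0.0266), 0.48 ± 0.13 for AT1G67310 (adjusted p = 0.0189) and 0.43 ± 0.13 for CAMTA2 (adjusted p = 0.0360). With upper quartile scaling 0 of the 6 passed and their median was 0.31. Of 8 genes of the CBP60 family of calmodulin-binding proteins 2 were higher and 2 lower (median 0.30). AT4G31000 stood at 22.2 and 24.9 CPM in wt and at 82.1 and 73.6 CPM in cml39, a log2 change of 1.73 ± 0.12 (adjusted p = 9.33e-05), and CBP60a rose as well (1.35 ± 0.17), while AT2G24300 fell (-1.27 ± 0.34).

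Of 7 autoinhibited calcium pumps, which calmodulin activates to export calcium from the cytosol, 3 were higher and 2 lower (median 0.46). ACA10 (log2 change 1.08 ± 0.16, SE, adjusted p = 0.00161) and ACA1 (1.56 ± 0.27, adjusted p = 0.00313) rose, while ACA9 fell (-3.63 ± 0.52, adjusted p = 0.00146), with 2.18 and 3.20 CPM in wt and 0.151 and 0.274 CPM in cml39. With upper quartile scaling 2 pumps were higher and 3 lower. Of 5 glutamate decarboxylase genes, whose enzymes make GABA and are activated by calmodulin, 3 were tested. GAD2 rose (0.39 ± 0.10, adjusted p = 0.0158), GAD1 fell (-0.47 ± 0.10, adjusted p = 0.00868), and GAD4 had a log2 difference of 0.74 that did not pass (adjusted p = 0.335). With upper quartile scaling 0 of these 3 were higher and 1 was lower.

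Of 11 other calmodulin binders 5 were higher and 2 lower (median log2 change 0.30), and 3 and 2 with upper quartile scaling. NADK2, the NAD kinase of chloroplasts (0.68 ± 0.10, SE), and PSKR1, a receptor of the peptide phytosulfokine (0.68 ± 0.12), rose, and DWF1, an enzyme of brassinosteroid synthesis, fell (-0.61 ± 0.10). IQD proteins are scaffolds that bind calmodulin and microtubules. Of 27 tested of 33 IQD genes 18 were lower and 3 higher, with a median of -1.02, the same counts as with upper quartile scaling. Their summed level was 998 CPM in both wt libraries and 960.3 and 933 CPM in cml39. IQD31 stood at 87.5 and 85.6 CPM in wt and at 44.8 and 43.2 CPM in cml39 (-0.98 ± 0.10, adjusted p = 0.000364), and IQD18 (-3.10 ± 0.33) and IQD30 (-1.15 ± 0.13) fell as well. As given above, 7 of 8 markers of dividing cells and 11 of 14 root markers were also lower, and a link with the IQD genes was not tested.

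Of 11 other genes that the reference names CML, 9 were tested, 6 higher (CML12, CML23 and CML24, given above, among them) and 2 lower. Their median log2 change was 1.63, the value of CML24, with CML39 counted above it. CML38 stood at 2.70 and 2.63 CPM in wt and at 55.0 and 101 CPM in cml39. The log2 values of the CAM genes ran from -0.55 to 0.67, and whether the lists differ was not tested.

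**Figure D5:**
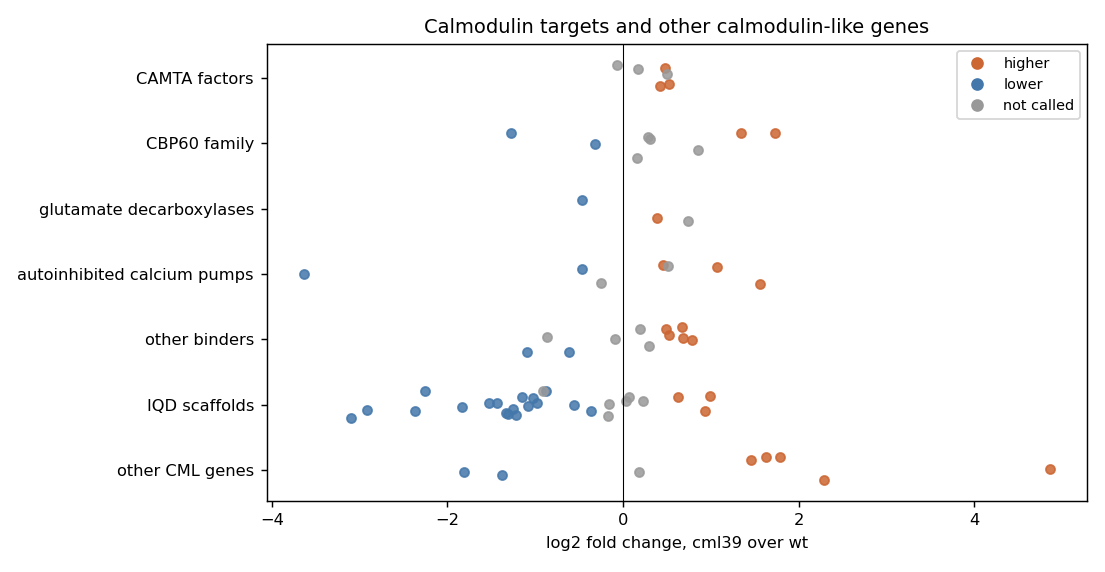
Log2 fold change, cml39 over wt, of each tested gene of 6 groups of calmodulin targets and of the other calmodulin-like genes, coloured by the call at an adjusted p of 0.05, without CML39. Of 27 IQD genes 18 lie among the lower calls, while the CAMTA factors hold 3 higher calls and 0 lower.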

How the data were processed

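Libraries were made from total RNA of seedlings with a stranded mRNA kit, per the labels' protocols. The submitters' processing notes name CASAVA 1.8, FastQC, STAR 2.5.2b, DESeq2 1.14.1 and the TAIR10 build, without the role of each, and the annotation and strand setting of the counting are not given in the sources used here. The deposited gene table holds raw read counts. In the authors' deposited comparison the signal column is a mean normalized count, the fold change of cml39 over wt and its SE are on the log2 scale, the score is the Wald statistic, and the p-values are raw and adjusted.

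The test was edgeR 4.0.16 in R 4.3.3 (filterByExpr, trimmed mean of M values with factors of 0.905 to 1.11, quasi-likelihood F test, two-sided), with Benjamini-Hochberg adjustment over all 19834 tested genes. SE is the log2 change over the square root of F. Single values were compared by exact permutation over libraries. CPM uses the scaled library sizes. A count of 0 allows up to 3 counts, or 0.113 to 0.164 CPM per library. Gene names, lengths and sequences come from TAIR10.1 (RefSeq), which held 32548 of the identifiers and not 285. The deposited files give no coordinates. For each CAM gene the transcript with a 450-base coding sequence was taken, for the others the longest coding sequence.

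The members and lists were chosen with earlier results of these data known. All members are named, with up to 3 genes of each target list by lowest p and the 3 genes nearest in pattern to the member with the largest change. Genes on either side of the members and the ratios of counts were added after the values were seen. The fit was tested on simulated data. Alternatives were other scalings, filters and tests (DESeq2 1.42.0, limma-voom in limma 3.58.1), the replicate number as a block, other lengths, and each library left out in turn.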

Additional observations from a re-analysis of the deposited data

How the results depend on the processing

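No alternative turned the direction of a member's change: of 118 values for the 10 members, 104 kept their side of the threshold, 10 lost a call and 4 gained one. CAM2, CAM5 and CML9 kept their calls in every alternative but the one without wt 1. CML8 could not be tested with at least 1 CPM in 2 libraries, which left 1 member lower, or without wt 1. With upper quartile scaling 4 members were lower, CAM3 and CAM7 added, and over all genes 2704 were higher and 5403 lower, against 3822 and 4285. Leaving out 1 library gave 3899 to 8657 genes called, 0 to 4 members higher and 0 to 3 lower, and a log2 ratio of the summed CAM level between -0.133 and 0.095. That ratio was -0.162 with upper quartile scaling. Differences in share between groups (percentage points) moved with the length used: by coding length, which equals no length correction for CAM1 to CAM7, they were 1.16 for the CAM1 and CAM4 protein, 0.526 for that of CAM2, CAM3 and CAM5, 1.75 for CAM6 and -3.43 for CAM7. With the length of 1 transcript, chosen after seeing the data, they were 1.01, 0.213, 1.92 and -3.14.

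With the replicate block 6744 genes passed, and among the members CML11 did not (adjusted p = 0.0904). The labels give no shared batch for equal replicate numbers, and the differences between replicates in wt and in cml39 correlated at r = -0.151 over genes, so the samples share only a number. CML8 and CML11 were read at 0 to 113 counts per library and the other members at 574 or more, and the parts of depth and of spread between libraries in their errors were not separated.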
